A study of Mus musculus with 16 samples.

Results

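The genes described here encode the proteins of the cytosolic ribosome, together with the processed pseudogenes that carry their names. They were chosen by gene name, as rows whose name begins Rpl or Rps followed by a digit, or Rplp, without the S6 kinases (Rps6k). This rule found 77 rows among the 6258 rows with a gene name in 3 tables. Of these, 76 stood among the 5716 rows of the comparison of quiescent hepatic stellate cells (qHSCs), 1 among the 123 rows for GFP-high activated hepatic stellate cells (aHSCs), and 0 among the 419 rows for GFP-intermediate aHSCs. Of the 76 qHSC rows 69 were protein-coding genes, 6 had a pseudogene name (-ps), and Rpl6l is annotated as a processed pseudogene although its name does not say so.

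The cytosolic ribosome joins a small subunit, which holds the mRNA and decodes it, to a large subunit, which forms the peptide bonds. Each ribosome needs its proteins in nearly equal numbers, and their mRNAs are among the most abundant in most cells, including those of the liver. Many of these mRNAs begin with a run of pyrimidines, the 5′ terminal oligopyrimidine (TOP) motif, through which their translation responds to growth signals. Because spliced ribosomal protein mRNAs were copied back into the genome many times, mice carry a large number of intronless copies, most of them annotated as processed pseudogenes.

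Hepatic stellate cells are the vitamin A-storing pericytes of the liver and its main source of scar matrix. RNA was sequenced from 16 samples of C57/Bl6 mice, in which cells were isolated by density centrifugation and sorted by flow cytometry. The 6 qHSC samples came from 3 uninjured WT1CreERT2;Ai14 animals, in which tamoxifen at E10.5 (embryonic day) had switched on the RFP reporter in cells expressing WT1, and whose livers were taken after weaning. Each animal gave 1 RFP-positive (label-positive) and 1 RFP-negative (label-negative) sample, and both fractions carried Cre at 1 allele of the WT1 locus. They are male by the labels, but the methods of the study name females for this use.

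The 10 aHSC samples came from 6 adult males injured for 8 weeks with carbon tetrachloride, and all were RFP-positive. Deleted animals were PDGFRbCre;WT1_fl_GFP;Ai14 and controls were PDGFRbCre;WT1_+_GFP;Ai14, so the control cells too carried GFP at 1 allele of the WT1 locus. PDGFRbCre is constitutive and acts in PDGFRb-expressing cells, which are not stellate cells alone. There were 3 control and 3 deleted samples of GFP-high cells, and 2 of each for the GFP-intermediate cells, which the labels call GFP low. One control sample of the GFP-intermediate cells combined 2 animals, and several animals gave both fractions. Wt1 itself had no row in any table, so the deletion could not be checked in these values.

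All values below are FPKM (fragments per kilobase of transcript, relative to the number of mapped fragments), with 1 deposited value for each group and gene. Such values are scaled to transcript length, so levels can be compared between genes. No value of a single sample was used, so no spread between animals, no test and no read depth can be given, and every row with a gene name had been listed as different in the deposited comparisons. Log2 ratios are of label-positive over label-negative, or deleted over control, without a pseudocount, and a gene at least 2-fold lower has a log2 ratio of -1 or below. Because FPKM is relative to all mapped fragments of a sorted fraction, fewer cells of a type and less RNA per cell cannot be told apart.

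In qHSCs the ribosomal protein genes with a row were lower in the label-positive fraction almost without exception. Of 85 annotated protein-coding genes that fit the name rule without -ps in the name 69 had a row, and the direction of the other 16 is not known. Of all 21923 annotated protein-coding genes 21.9% had a row, a share to be held beside each count of listed names below. Of the 69 protein-coding genes, 68 were lower and 1, Rps27l, was higher, where 49.6% of all rows of the table were lower. At least 2-fold lower were 37 of the 69, against 43.5% of all rows. With ratios centred on the median of all rows, 0.64, 68 were at least 2-fold lower and the median of the 69 genes was -1.67. Only called rows are listed, 2883 higher and 2833 lower with a gap around 0, so that median depends on which direction holds more rows. Such centring moves every ratio by the same amount and corrects no known difference in scale. The FPKM of the 69 genes summed to 48895 in label-negative cells and 23871 in the label-positive fraction. Over all other rows the sum was lower as well, at 273837 in label-negative cells and 219130 in the label-positive fraction. The median log2 ratio over the 69 genes was -1.03, with quartiles of -1.23 and -0.86, while the median of all rows above 0 in both groups was 0.64.

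**Figure D1:**
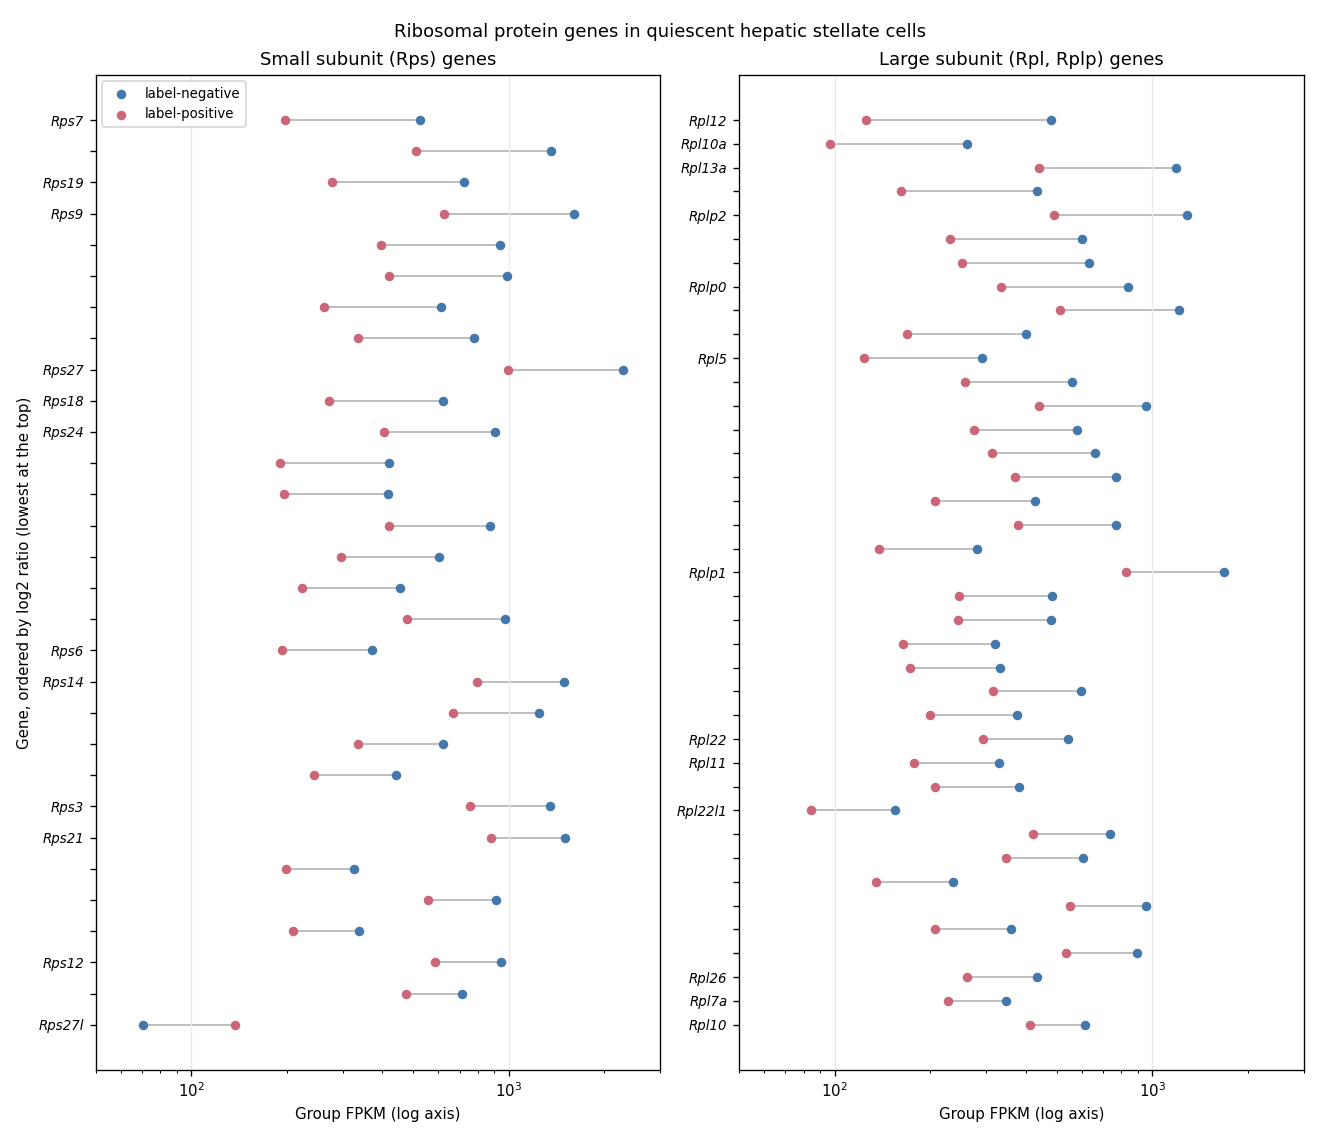
Group FPKM (log axis) of the 30 small subunit and 39 large subunit genes in label-negative (blue) and label-positive (red) qHSCs, with 1 value for each group and genes ordered by log2 ratio, of which those with values in the text are labelled. The blue point lies to the right of the red point for 68 of the 69 genes, and Rps27l at the foot of the left panel is the exception.

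Without Rps27l the ratios of the 68 genes lay between -1.94 and -0.58. Rows of low level were listed only where their ratio was large, so these genes are set beside abundant rows. The 247 other lower rows with at least 100 FPKM in label-negative cells, of which 29 were at 0 in the label-positive fraction, had a median of -2.06 over the rest, with quartiles of -3.13 and -1.10. Of these 247, 101 (40.9%) fell inside the range of the 68 genes. Among the 656 other rows that reached 100 FPKM in either group 409 were higher and 247 lower in label-positive cells, with a median of 1.01. Some of the 656 reached 100 FPKM only in the label-positive fraction, with label-negative values down to 4.34. Whether level in label-negative cells goes with direction was therefore not tested by this count.

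**Figure D2:**
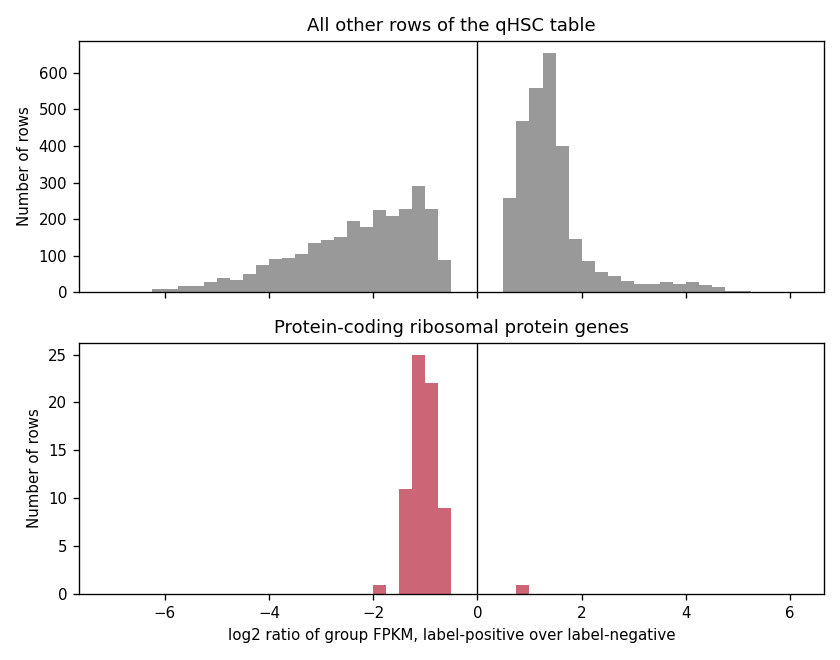
Number of rows (vertical axis) by log2 ratio of label-positive over label-negative FPKM in bins of equal width, for all other rows above 0 in both groups (top) and for the 69 protein-coding ribosomal protein genes (bottom). The ribosomal protein genes form 1 group around -1.03 with Rps27l apart at 0.97, whereas the other rows, most of them of far lower level, fall on both sides of a gap around 0 that holds no called row.

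Genes of both subunits with a row were lower to a like extent. Among the 30 small subunit genes 29 were lower, 17 of them at least 2-fold, with a median log2 ratio of -1.03. All 39 large subunit genes with a row were lower, 20 of them at least 2-fold, with a median of -1.02.

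The order of the genes by level was largely kept between the fractions. Rps27, a zinc finger protein of the small subunit, was the highest in both, at 2296 FPKM in label-negative cells and 997 in the label-positive fraction. In label-negative cells it was followed by the stalk protein gene Rplp1 at 1679, Rps9 at 1606, Rps21 at 1505 and Rps14 at 1494. In label-positive cells the next were Rps21 at 877, Rplp1 at 827, Rps14 at 796 and Rps3 at 753, of which Rps3 stood at 1350 in label-negative cells. Neighbours in this order cannot be told apart without values per animal.

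Across the 69 genes the log2 FPKM of the fractions had a Spearman correlation of 0.95 and a Pearson correlation of 0.91, given as a description since the genes share libraries and are not independent. A gene shifted by a median of 4 places in the order and by 22 at most. The level in label-negative cells and the log2 ratio were only weakly related over the 68 genes without Rps27l (Spearman -0.18, Pearson -0.16). From the lowest to the highest gene the level spanned 32.7-fold in label-negative cells, where Rps27l was lowest at 70.3, and 11.8-fold in label-positive cells, where Rpl22l1 was lowest at 84.2.

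Ribosomal protein genes took a large part of the most abundant listed genes of the label-negative fraction. They filled 21 of its top 50, 42 of its top 100 and 65 of its top 200 rows. In label-positive cells they filled 6, 18 and 44. These ranks are among the rows of the table and not among all genes expressed.

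The P-stalk, a flexible arm of the large subunit that recruits elongation factors, is built of Rplp0 with copies of Rplp1 and Rplp2. Rplp0 was at 838 in label-negative cells and 335 in the label-positive fraction (log2 ratio -1.32). The values of Rplp1 were 1679 and 827 (-1.02), and those of Rplp2 were 1285 and 491 (-1.39). Rpl12, which sits at the base of the same stalk, had the lowest ratio of all 69 genes, with 481 in label-negative cells and 125 in the label-positive fraction (-1.94). No other of the 69 was within 0.5 of it on the log2 scale.

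Among the next lowest ratios were those of large subunit and small subunit genes alike. Rpl10a, the protein of the L1 stalk near the exit site for tRNA, had 262 and 96.6 (-1.44). Rpl13a, also known from a complex that silences inflammatory mRNAs, had 1190 and 440.3 (-1.43). Rps7, a small subunit protein, had 526 and 198 (-1.41). In each of these and in Rpl12 the label-positive value was under 40% of the label-negative one.

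At the other end, the smallest differences among the lower genes included those of Rpl10, Rpl7a and Rps12. Rpl10, which joins the large subunit late in its assembly, had 613 in label-negative cells and 411 in the label-positive fraction (-0.58). Rpl7a had 347 and 227 (-0.61), and Rps12 had 947 and 588 (-0.69).

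Genes with known roles in growth control and disease lay within the same band. Rpl5 and Rpl11, which with 5S rRNA bind and restrain the p53 ligase MDM2, had 290 and 124 (-1.23) and 330 and 178 (-0.89). Rps19, the gene most often mutated in Diamond-Blackfan anaemia, had 722 and 278 (-1.38). Rps6, the substrate for which the S6 kinases are named, had 370.0 in label-negative cells and 193 in the label-positive fraction (-0.94).

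Rps27l, the only higher gene, is a near copy of Rps27 that p53 can switch on. It was at 70.3 FPKM in label-negative cells and 137 in the label-positive fraction (log2 ratio 0.97), just short of 2-fold. The level of Rps27 was 32.7 times that of Rps27l in label-negative cells and 7.26 times in the label-positive fraction, and their log2 ratios differed by 2.17. In the other pair of listed paralogs the ratios were close. Rpl22 had 544 and 293 (-0.89) and Rpl22l1, its paralog, 155 and 84.2 (-0.88), so that the level of Rpl22 was 3.52 times that of Rpl22l1 in label-negative cells and 3.48 times in the label-positive fraction.

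The sequence around the annotated start is shown for the highest gene, a stalk gene, the genes of lowest and highest ratio and the S6 kinase substrate, to set the exception beside the rest. Each line gives 12 bases before and 18 from the first listed RefSeq start (GRCm38.p6), 5′ to 3′ on the sense strand. Capitals mark the longest run of pyrimidines (C or T) that begins with C in these bases.
Rps27 (chr3:90213631-90213660, minus strand): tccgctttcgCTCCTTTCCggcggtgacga
Rplp2 (chr7:141447639-141447668, plus strand): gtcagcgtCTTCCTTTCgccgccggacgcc
Rpl12 (chr2:32961700-32961729, plus strand): ggagcaggatccgtCTTTTCggctttcggc
Rps6 (chr4:86857350-86857379, minus strand): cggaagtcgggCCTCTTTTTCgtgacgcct
Rps27l (chr9:66946074-66946103, plus strand): CTCCTCCCCgccgcctctatcccggaagtt

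In Rps27, Rplp2 and Rps6 the run spanned the annotated start, in Rpl12 it began 2 bases after the start base, and in Rps27l it lay wholly upstream. Within the bases shown its length was 9 bases in Rps27, Rplp2 and Rps27l, 6 in Rpl12 and 10 in Rps6. In Rps27l the run begins at the first base shown, so it may reach further upstream. RefSeq promoters were matched for 50 of the 69 genes by symbol. A run of at least 5 pyrimidines beginning with C lay within 25 bases of the start on the sense strand in 40 of these 50 (80%), compared with 53.1% of all 27025 promoters and 53.1% of the 3789 promoters of other rows. The letters CCGGAAG, part of the motif bound by ETS factors, were present on either strand between 250 bases before and 50 after the start in 20 of the 50 (40%), compared with 9.12% of all promoters and 7.97% of those of other rows. Rplp2, Rps6 and Rps27l had these letters in the window and Rps27 and Rpl12 did not. A match describes the letters only, and the annotated start may differ from the one used in these cells.

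Ribosomal protein genes whose names the rule does not catch lay in the same place. Of 5 listed names 3 had a row and all were lower in label-positive cells, with a median log2 ratio of -1.05. Rpsa, a small subunit protein also called the laminin receptor, had 293 and 96.7 (-1.60). Fau, a fusion of a ubiquitin-like protein to a small subunit protein, had 703 and 342 (-1.04). Gnb2l1, the scaffold RACK1, had 1276 and 617 (-1.05).

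Other genes with a TOP motif, most of which serve translation, were lower as well. Of 27 listed names 15 had a row, beside 21.9% of all annotated protein-coding genes. All 15 were lower, 8 of them at least 2-fold, with a median of -1.04. The list shares members with the other translation lists. Eef1b2, a nucleotide exchange factor of elongation, had 666 and 300.2 (-1.15). Pabpc1, the poly(A)-binding protein, had 380 and 157 (-1.28). Npm1, the nucleolar chaperone nucleophosmin, had 308 and 139 (-1.15). Gas5, a noncoding RNA with a TOP motif that hosts small nucleolar RNAs, had 361 and 190.1 (-0.92).

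Lists of translation and ribosome assembly factors without regard to the motif were less well covered, beside 21.9% of all annotated protein-coding genes. Of 12 elongation factors 3 had a row and all were lower, with a median of -0.62. Of 50 initiation factors 7 had a row, of which 6 were lower and Eif4ebp1, an inhibitor of cap-dependent initiation, was higher at 29.2 and 47.9 (0.72). Of 87 biogenesis factors 9 had a row, of which 7 were lower. Among these were Myc, a transcription factor that drives ribosome production, at 78.7 and 19.7 (-2.00), and Fbl, the nucleolar methyltransferase fibrillarin, at 29.6 and 15.2 (-0.96). Imp3 and Sbds, which act in maturation of the small and the large subunit, had log2 ratios of 0.61 and 0.66. With ratios centred on the median of all rows, 0.64, Imp3 turned to -0.03, Sbds stood at 0.02 and Eif4ebp1 at 0.08. As that median is of called rows only, these centred values near 0 do not show that the 3 genes were unchanged.

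Of the S6 kinase genes and the pathway upstream 3 of 19 had a row, and they did not share a direction. Rps6ka2 was higher in label-positive cells at 10.4 and 31.5 (1.60). Rps6ka1 had 53.3 and 18.8 (-1.50), and Rps6ka5 had 3.57 and 1.05 (-1.77). Of the 78 annotated proteins of the mitochondrial ribosome only Mrps31 (6.23 and 11.6, 0.90) and Mrpl50 (9.96 and 16.7, 0.74) had a row, and both were higher. The share with a row among all annotated protein-coding genes was 21.9%.

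**Figure D3:**
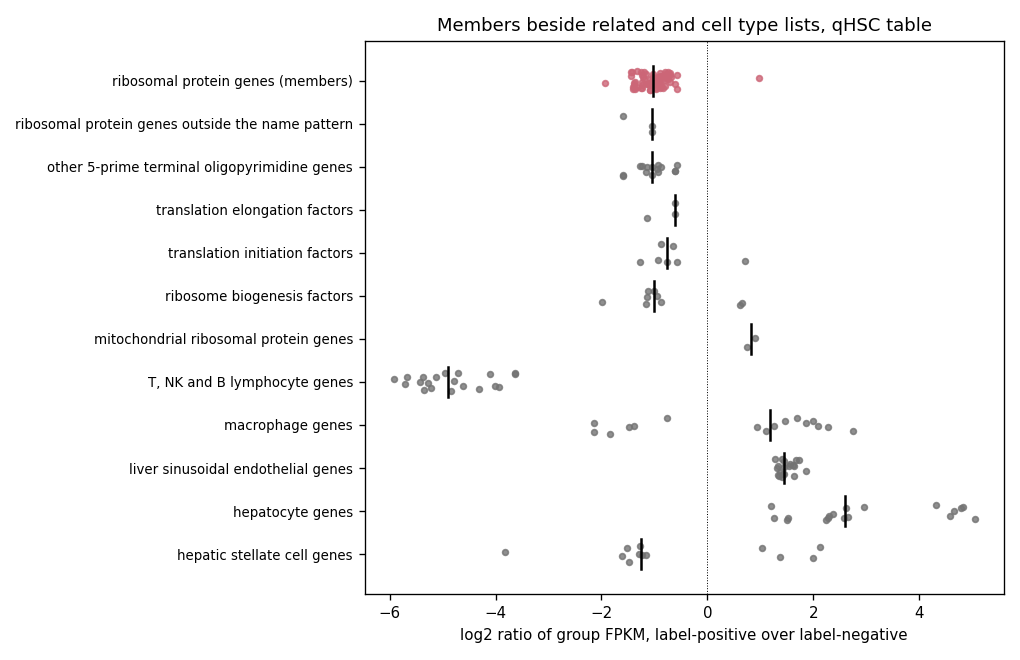
Log2 ratio of label-positive over label-negative FPKM for each row above 0 in both groups of the ribosomal protein genes (red), related lists and cell type lists (grey), with the median of each list as a black line. The ribosomal protein genes and the TOP motif genes have medians of -1.03 and -1.04, lymphocyte genes -4.90, sinusoidal endothelial genes 1.45 and hepatocyte genes 2.59.

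Markers of other cell types differed between the fractions as well, lymphocyte markers in the direction of the ribosomal protein genes and endothelial and hepatocyte markers in the opposite one. All 20 of 20 T, NK and B lymphocyte markers had a row and were lower in label-positive cells, with a median log2 ratio of -4.90 and an FPKM sum of 1759 in label-negative cells and 66.2 in the label-positive fraction. Segments of T cell receptor and immunoglobulin genes took 17 of the top 100 rows in label-negative cells and 2 in the label-positive fraction. Of 20 listed macrophage names 16 had a row, 10 higher and 6 lower, with a median of 1.18 and sums of 2128 and 1306. Lyz2, a lysozyme of myeloid cells, at 1283 and 289, differed by more than the sums did, while the Kupffer cell gene Clec4f was higher at 34.2 and 166. All 20 sinusoidal endothelial markers were higher in label-positive cells, with a median of 1.45 and sums of 5619 and 15240. Of 20 hepatocyte markers 18 had a row and all 18 were higher, with a median of 2.59 and sums of 267 and 2110.

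Markers of stellate cells, the cell type that the labels name, did not share a direction. Of 20 stellate cell markers 12 had a row, 4 higher and 8 lower, with sums of 752 and 364, of which Vim alone, also a TOP gene, gave 586 and 248. Pdgfrb stood at 0.905 and 0.370, Col1a1 at 7.28 and 2.63, and Dcn at 109 and 49.0. Lrat, Des and Reln had no row, so their levels in either fraction are not known. What part these cell types had in the difference in ribosomal protein genes was not tested, since the cell makeup of the fractions and the label cannot be told apart in values of whole fractions.

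In the GENCODE vM21 annotation 21.9% of all 21923 protein-coding genes had a row in the qHSC table. Of the 85 that fit the name rule without -ps in the name, 69 had a row and 16 had none. These were Rpl13, Rpl15, Rpl24, Rpl28, Rpl29, Rpl31, Rpl35, Rpl35a and Rps28, the paralogs Rpl10l, Rpl36al, Rpl39l, Rpl3l, Rpl7l1 and Rps27rt, and Rps19bp1, which is not a ribosomal protein but binds Rps19. Their levels are not known here.

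Of 291 annotated names with -ps that fit the rule, 6 are annotated as protein-coding and had no row. Another 6, all annotated as processed pseudogenes, had a row in the qHSC table. With Rpl6l there were 7 annotated pseudogenes, and all 7 were lower in label-positive cells, 6 of them at least 2-fold, with a median log2 ratio of -1.54. With a pseudocount of 1 FPKM 1 of them was at least 2-fold lower and the median was -0.54. Low-level rows were listed only if their ratio was large enough to be called, so this median cannot be set beside that of the abundant genes. Rps24-ps3 was the highest at 53.5 in label-negative cells and 23.2 in the label-positive fraction (-1.20), followed by Rpl3-ps1 at 9.80 and 5.64 (-0.80). The other 5 were below 1.5 FPKM in both groups. Rpl23a-ps5 had 1.39 and 0.490 (-1.50), Rpl13-ps5 had 0.783 and 0.228 (-1.78) and Rplp0-ps1 had 0.427 and 0.147 (-1.54). Rpl6l had 0.368 and 0.112 (-1.72), and Rpl3-ps2 had 0.328 and 0.0923 (-1.83).

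The highest of the 7 named pseudogenes is nearly the same as its parent gene. Rps24-ps3 (chrX:79195047-79195448, plus strand, GRCm38), a single-exon copy, is 99.0% identical to the Rps24 mRNA over its 402 bases, with 1 identical stretch of 206 bases. Rps24 (chr14:24487125-24496959, plus strand), a small subunit gene, had 904 in label-negative cells and 405 in the label-positive fraction (-1.16). The pseudogene thus stood at 5.92% of its parent in label-negative cells and 5.73% in the label-positive fraction. A stretch of 60 bases from the GENCODE vM21 transcripts, with capitals at the bases that differ, shows how few positions separate their reads. It was chosen as the first stretch of this length without gaps, inside the coding sequence of the parent, with the most differing bases.
Rps24-ps3: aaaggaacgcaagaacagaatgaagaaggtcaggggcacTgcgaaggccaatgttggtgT
Rps24: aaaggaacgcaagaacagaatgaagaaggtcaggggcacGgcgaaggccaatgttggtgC

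Copies outside the name rule were found by aligning the other listed pseudogenes, and protein-coding genes with a provisional Gm name, to ribosomal protein transcripts, with at least 90% identity over at least 90% of the copy, a criterion set after values had been seen. In the qHSC table there were 23 such copies, of which 20 were lower and 3 higher in label-positive cells. Of these, 14 reached an FPKM of 1 and 5 reached 10 in the higher group. The 5 abundant copies were all lower, and they are between 98.8% and 99.5% identical to their parents. Gm15772, a copy of Rpl26, had 142 in label-negative cells and 86.1 in the label-positive fraction (-0.72), or 32.6% and 33.0% of Rpl26. Gm10260, a copy of Rps18 annotated as protein-coding, had 124 and 53.0 (-1.23), or 20.0% and 19.6% of Rps18. Gm10263, a copy of Rps28, had 62.9 and 28.5 (-1.14), although Rps28 itself had no row. Gm6472, a copy of Rps7, had 54.7 and 24.4 (-1.16), and Gm10073, a copy of Rplp1 annotated as protein-coding, had 16.1 and 7.51 (-1.10).

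The ratio of a copy was mostly near that of its parent. Of the 17 copies outside the name rule for which both ratios were available, 12 lay within 0.5 of the parent on the log2 scale, with a median difference of -0.22. Of the named pseudogenes 4 of 6 did, with a median difference of -0.30. The 69 protein-coding genes had quartiles of -1.23 and -0.86, so a lower copy could lie this near to many of them. Whether copies were nearer to their own parent than to other ribosomal protein genes was not tested. The 3 copies that were higher in label-positive cells were all below 1 FPKM. Gm7831, a copy of Rpl17 with 90.7% identity, had 0.0627 and 0.401 (2.67), Gm19566, a copy of Rpl15, had 0.198 and 0.724 (1.87), and Gm11619, a copy of Rpl37a, was listed at 0 in label-negative cells and at 0.446 in the label-positive fraction. How the original counting divided reads between near-identical copies is not given in the sources used here, so the values of copies and parents are uncertain where they share sequence.

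**Figure D4:**
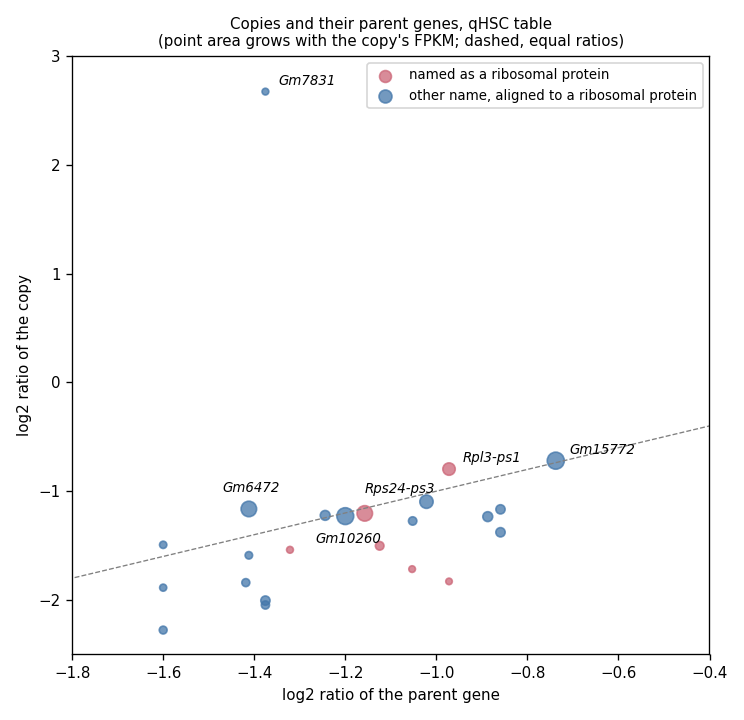
Log2 ratio of label-positive over label-negative FPKM of each copy (vertical axis) and of its parent gene (horizontal axis), for pseudogenes named as ribosomal proteins (red) and copies under other names (blue), with point area rising with the FPKM of the copy. The abundant copies Gm15772, Gm10260 and Rps24-ps3 lie at the dashed line of equal ratios, and Gm7831 stands far above it at 2.67.

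After WT1 deletion no protein-coding ribosomal protein gene had a row in either aHSC fraction, and neither did any gene of the related translation lists. Of all 21923 annotated protein-coding genes 0.447% had a row for GFP-high and 1.75% for the GFP-intermediate fraction, and at such shares a list of this size would hold few rows or none. The single named member was the pseudogene Rps2-ps13, which was listed for GFP-high cells at an FPKM of 0.219 in control and 58.1 in deleted cells (log2 ratio 8.05). Of the named rows for that fraction 77.2% were at least 2-fold higher after deletion. Rps2, its parent and a small subunit gene, had no row there, so its own levels in these cells are not known.

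Rps2-ps13 (chrX:52898588-52899469, plus strand, GRCm38) is a single-exon copy, 99.2% identical over 882 bases to the mRNA of Rps2 (chr17:24718116-24721929, plus strand), with 1 identical stretch of 302 bases. The 60 bases shown, from the GENCODE vM21 transcripts, were again those of the coding sequence with the most differing bases. Capitals mark the only bases that differ within them.
Rps2-ps13: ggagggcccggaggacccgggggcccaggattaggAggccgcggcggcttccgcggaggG
Rps2: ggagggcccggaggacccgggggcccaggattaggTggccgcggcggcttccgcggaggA

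A copy outside the name rule was listed with a difference of like size in both fractions. Gm11942 (chr4:32964888-32965232, plus strand, GRCm38) is 97.4% identical over 345 bases to the mRNA of the stalk gene Rplp1 (chr9:61913284-61914542, minus strand), with 1 identical stretch of 114 bases. In GFP-high cells it had 1.07 in control and 228 in deleted cells (7.73). In GFP-intermediate cells it had 1.41 in control and 223 in deleted cells (7.31), in a table of which 37.2% of the named rows were at least 2-fold higher. The fractions share animals, so these are not independent observations. The stretch with 5 differing bases, chosen in the same way and again in capitals, is shown beside that of Rplp1.
Gm11942: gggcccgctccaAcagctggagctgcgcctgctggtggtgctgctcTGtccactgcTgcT
Rplp1: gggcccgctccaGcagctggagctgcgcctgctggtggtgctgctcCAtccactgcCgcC

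**Figure D5:**
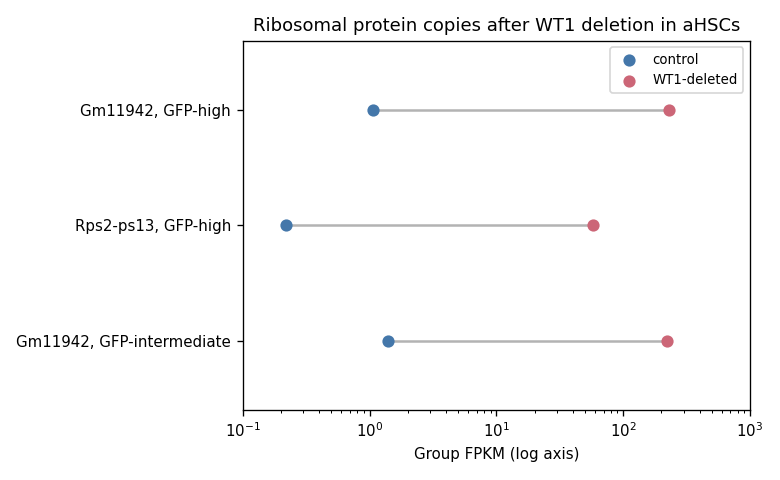
Group FPKM (log axis) of the ribosomal protein copies above 0 in both groups of an aHSC table, in control (blue) and WT1-deleted (red) cells, with 1 value for each group. Gm11942 lies near 1 in control and above 200 in deleted cells of both fractions, and Rps2-ps13 at 0.219 and 58.1 in GFP-high cells.

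Another copy was at 0 in a group. Gm13194, 94.7% identical to Rpl36a, was listed at 2.05 in control and at 0 in deleted GFP-intermediate cells. Rpl36a and Rplp1 had no row in either table. Among the cell type lists, 13 rows of the GFP-intermediate table held macrophage markers, of which 1 row named both C1qb and C1qc. All 13 rows were lower after deletion, with sums of 5547 and 1397. Of 5 stellate markers with a row there Rgs5, Lum, Colec11 and Cygb were higher and Hgf was lower, with a median of 1.67. Both endothelial markers and the 1 lymphocyte marker with a row were lower, while no macrophage or lymphocyte marker had a row in the GFP-high table. Lum was the 1 stellate marker with a row there, and it was higher. Of the hepatocyte markers 2 had a row in that table and 1 in the GFP-intermediate one, all higher after deletion. The part of cell makeup, of the animals used and of read assignment in the values of these copies was not tested.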

How the data were processed

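RNA was sequenced by the authors on an Illumina HiSeq, mapped with bowtie 2 and compared with Cuffdiff2, with genes called below an adjusted p of 0.05. The submitters' processing notes also name TopHat2 2.0.3, Cufflinks 2.0.1, DESeq2 and the builds mm9 and mm10, without a role. What the authors deposited is 1 FPKM per group for every listed gene, and the named rows are those of their comparison tables. The aHSC tables hold more named rows than the study counts as changed, for a reason not given in the sources used here. Their further columns (log2 fold change, p-value, q-value) were not used. Group mapping followed the sample labels. Depth per sample is unknown, and 108 and 149 rows without a gene name in the aHSC tables were left out.

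Directions and log2 ratios were computed with Python 3.11.15 and pandas 2.3.3, without a test. Copies were aligned with blastn 2.17.0 (word size 11, e-value 1e-20) to GENCODE vM21 transcripts. The members and lists were chosen with earlier results of these data known. Named in the qHSC table were P-stalk genes, the 5 highest genes of each group, the 5 lowest and 5 highest ratios (FPKM of at least 1), paralogs, pseudogenes, genes in a rare direction, Rpl5, Rpl11, Rps19 and Rps6, and in the aHSC tables all members. Rpl26, Rps24 and other parents and copies, and genes picked from the lists, were chosen after their values were seen. Alternatives were pseudocounts of 1 and 0.1, FPKM minimums of 1 and 100, rows naming 1 gene only and centring on the table median. Some genes that this rule names are not reported here.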

Additional observations from a re-analysis of the deposited data

How the results depend on the processing

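The alternatives were run on the counts and medians of the protein-coding genes and pseudogenes and on Rps2-ps13, where no median changed sign and 37 of 48 values did not move. Many of the 37 could not have moved. The FPKM minimums and the 1-gene setting kept all 69 protein-coding genes, and the 1-gene setting kept all pseudogenes and Rps2-ps13. A pseudocount cannot change a direction. The 37 are therefore no measure of stability. The related lists were checked under centring alone, where Imp3 turned from 0.61 to -0.03. Centred on the median log2 ratio of all rows, 0.64, 68 of the 69 protein-coding genes were at least 2-fold lower and their median was -1.67, and that of the pseudogenes was -2.18. As only called rows enter the median of 0.64, these centred values show a shift of all ratios and are no separate result. With a pseudocount of 1 FPKM, 1 pseudogene was at least 2-fold lower, the pseudogene median was -0.54 and the log2 ratio of Rps2-ps13 was 5.60. A pseudocount of 0.1 gave -1.15 and 7.51. With a minimum of 1 FPKM in either group, 3 pseudogenes remained and were lower, 2 of them at least 2-fold, with a median of -1.20. A minimum of 100 FPKM, chosen after seeing the data, left no pseudogene, and the counts and median of the protein-coding genes were as before.

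No paired analysis was possible because the deposited values are 1 for each group, and leaving out a replicate was not possible for the same reason. The tables list genes of the deposited comparisons only, so nothing is known of a member without a row. The read depth limits the low-level copies to an unknown degree.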
